A study of Mus musculus with 10 samples.

Results

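A set of 10 genes of neural stem cells and Notch signalling was examined in RNA sequencing of mouse cerebellum and medulloblastoma, a tumour of the cerebellum. They were chosen by symbol, as Nes, Sox2, Vim, Msi1, Pax6, Dll1, Notch1, Notch2, Hes1 and Hes5, and make up 10 of the 39769 gene symbols of the deposited table. All 10 passed the filter on low counts, which kept 15617 symbols. The AKP group held 3 libraries labelled medulloblastoma with the genotype AtohI-Cre Kmt2dfl/+ Ptch+/-, AKP 3 being 4 months old and the other 2 being 2 months old. The NKP group held 3 libraries labelled medulloblastoma with the genotype Nestin-Cre Kmt2dfl/+ Ptch+/-, all at 4 months. The Ptch group, labelled control, held 4 libraries of cerebellum from Ptch+/- mice. Of these, Ptch 1 and Ptch 2 were 4 months old, and the other 2 were 2 months old. All 3 groups thus carried the Ptch+/- genotype, and no Cre line without floxed Kmt2d and no wild-type cerebellum was analysed here. AKP and NKP differ from Ptch in the Cre line, the floxed copy and the labelled tissue at once, which cannot be told apart. Nestin-Cre is driven by regulatory sequence of the nestin gene and acts broadly in neural progenitors, while Atoh1-Cre acts in the granule neuron lineage.

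In Notch signalling a ligand on one cell, such as Delta-like 1, binds a Notch receptor on its neighbour. The receptor is then cut by gamma-secretase, and its intracellular part enters the nucleus and joins the DNA-binding protein Rbpj to switch on Hes genes. Hes proteins repress neuronal differentiation genes and help to keep neural stem cells undifferentiated. Sox2, nestin, vimentin and Musashi 1 mark such stem cells in the embryonic brain. In the adult cerebellum Sox2, vimentin and Notch receptors are also found in Bergmann glia, nestin in vessels, and Pax6 in granule neurons.

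Several libraries stood apart from their labels, and whether labels were exchanged was not resolved, so each comparison is between groups as labelled. Kmt2d, a histone methyltransferase gene and the floxed gene, ran from 34.3 to 43.6 CPM (counts scaled to a common library total) in AKP, 33.2 to 58.0 CPM in NKP and 52.6 to 68.4 CPM in Ptch. The library labelled NKP 3 lay within the Ptch range, and a gene-level count need not show the loss of a floxed exon. In 4 of 10 libraries (AKP 3, NKP 3, Ptch 1 and Ptch 3) the sex label was contradicted by Xist or Y-linked RNA. Cerebellar markers such as Zic1 (460 to 712 CPM) and Gabra6 (184 to 539 CPM) were present in all libraries. Atoh1, the marker of granule neuron precursors, was at 0 counts in AKP 1 and NKP 1. The summed level of 8 mitosis genes was 6.0, 209 and 168 CPM in AKP 1 to 3. It was 6.22, 5.91 and 45.4 CPM in the NKP libraries and 332, 334, 110 and 102 CPM in Ptch 1 to 4. All Ptch libraries thus exceeded AKP 1 and the NKP libraries, and Ptch 1 and Ptch 2 exceeded every library labelled medulloblastoma. Total counts ran from 12300430 to 19348991 per library.

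No member passed the test in any of the 3 comparisons by group label (edgeR quasi-likelihood test, Benjamini-Hochberg adjusted p below 0.05 over all genes). Of all genes tested, 5.68% were called in AKP against Ptch, 0% in NKP against Ptch and 0.00640% in AKP against NKP. At an unadjusted p below 0.05, 3 of 10 members were found in AKP against Ptch (Msi1, Notch2 and Hes1), beside 25.1% of all genes. Between NKP and Ptch there were also 3 of 10 (Nes, Msi1 and Pax6), beside 17.0% of all genes, and in AKP against NKP 0 of 10, beside 16.9%. DESeq2, run as an alternative, called 0 of 10 members in each comparison, beside 12.4% of all genes in AKP against Ptch, 2.60% in NKP against Ptch and 1.47% in AKP against NKP. It gave no adjusted p for 2 members in AKP against Ptch and for 6 in AKP against NKP. The members' data are therefore given below by library, with their sizes of difference and intervals.

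**Figure D1:**
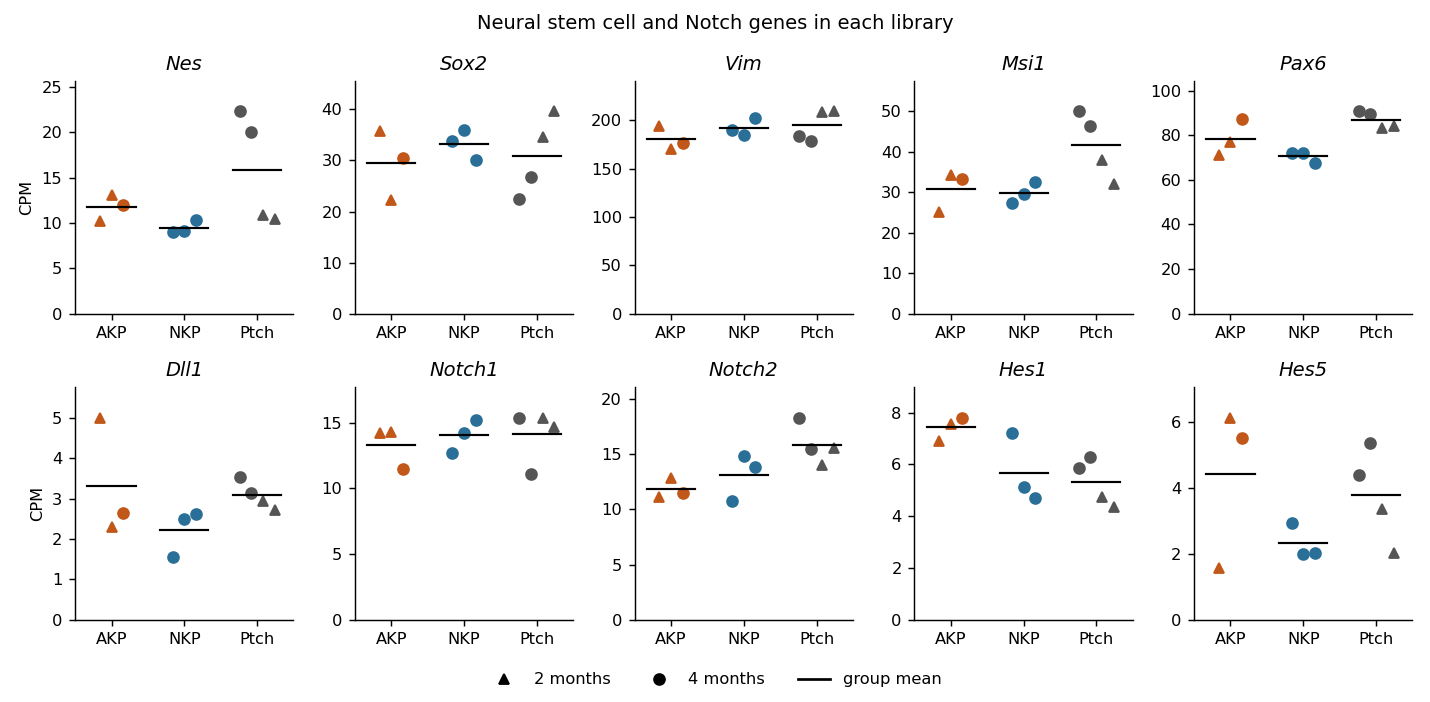
Level of each of the 10 genes in CPM (vertical axes, from 0) in the AKP, NKP and Ptch libraries, with triangles for 2 months, circles for 4 months and a line at each group mean. Nes is at 22.3 and 20.0 CPM in Ptch 1 and Ptch 2 and at 13.1 CPM or less in the other libraries, and Hes5 is at 1.56 CPM in AKP 1 against 6.13 and 5.53 CPM in AKP 2 and AKP 3.

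Per kilobase of the longest annotated coding transcript, Vim had the highest level of the 10 genes. Its mean over all libraries was 86.6 ± 6.20 CPM per kb (SD, n = 10), far above Pax6 at 18.0 ± 1.93 and Sox2 at 15.2 ± 2.85 CPM per kb. Pax6 and Sox2 differed by about their spread over libraries. Msi1 followed at 11.1 ± 2.53 CPM per kb. The Hes genes came next, with Hes1 at 4.13 ± 0.872 and Hes5 at 2.78 ± 1.34 CPM per kb, a gap of the size of the spread of Hes5. Nes stood at 2.08 ± 0.756, Notch1 at 1.46 ± 0.166, Notch2 at 1.32 ± 0.224 and Dll1 at 0.810 ± 0.254 CPM per kb. Notch1 and Notch2 did not differ beyond their spread. The ratio of the highest to the lowest library in CPM was smallest for Vim (1.23) and largest for Hes5 (3.93), Dll1 (3.23) and Nes (2.48).

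Nes (chromosome 3, 87971093 to 87980451, GRCm38.p6) encodes nestin, an intermediate filament protein of neural stem cells. It was at 10.2, 13.1 and 12.01 CPM in AKP 1 to 3, at 8.995, 9.18 and 10.35 CPM in NKP 1 to 3, and at 22.3, 20.0, 10.9 and 10.40 CPM in Ptch 1 to 4. The NKP libraries lay below all Ptch libraries, but NKP 3 and Ptch 4 were only just apart, while the AKP libraries overlapped Ptch. The log2 fold change was -0.43 in AKP against Ptch (standard error, SE, 0.254, edgeR adjusted p = 0.322) and -0.74 in NKP against Ptch (SE 0.256, edgeR adjusted p = 0.218). Within Ptch, the 4-month pair averaged 1.99 times the 2-month pair (21.2 and 10.6 CPM). Without Ptch 1 and Ptch 2 the log2 fold change was 0.15 in AKP against Ptch and -0.17 in NKP against Ptch, so the size of both group differences rested on this pair.

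Msi1 (chromosome 5, 115359059 to 115455698), which encodes the RNA-binding protein Musashi 1, followed a similar order of libraries. It was at 25.1, 34.3 and 33.2 CPM in AKP 1 to 3, at 27.5, 29.7 and 32.5 CPM in NKP 1 to 3, and at 50.0, 46.3, 38.1 and 31.95 CPM in Ptch 1 to 4. Both tumour-labelled groups overlapped Ptch only through Ptch 4. Its log2 fold change was -0.43 in AKP against Ptch (SE 0.156, edgeR adjusted p = 0.110) and -0.47 in NKP against Ptch (SE 0.156, edgeR adjusted p = 0.218). Without Ptch 1 and Ptch 2 these were -0.18 and -0.23.

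Pax6 (chromosome 2, 105668896 to 105698410), a transcription factor gene of the granule neuron lineage, had the smallest SE of the members with an unadjusted p below 0.05. It was at 71.3, 77.2 and 87.2 CPM in AKP 1 to 3, at 72.0, 71.9 and 67.6 CPM in NKP 1 to 3, and at 90.7, 89.7, 83.2 and 84.3 CPM in Ptch 1 to 4. All NKP libraries were lower than all Ptch libraries, and AKP 3 lay within the Ptch range. Between NKP and Ptch the log2 fold change was -0.30 (SE 0.0862, edgeR adjusted p = 0.218), and it stayed between -0.38 and -0.26 over 25 alternatives. In AKP against Ptch it was -0.15 (SE 0.0860, edgeR adjusted p = 0.312).

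Sox2 (chromosome 3, 34649995 to 34652461), a stem cell transcription factor gene, ran the other way within the Ptch group. It was at 35.8, 22.3 and 30.4 CPM in AKP 1 to 3, at 33.8, 35.9 and 30.1 CPM in NKP 1 to 3, and at 22.4, 26.8, 34.5 and 39.6 CPM in Ptch 1 to 4. AKP 2 and Ptch 1 were lowest and Ptch 4 highest, so all 3 groups overlapped. The 4-month Ptch pair averaged 0.664 times the 2-month pair (24.6 and 37.1 CPM), the reverse of Nes. Sox2 had a log2 fold change of -0.07 in AKP against Ptch (SE 0.197, edgeR adjusted p = 0.873) and 0.11 in NKP against Ptch (SE 0.195, edgeR adjusted p = 0.811).

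Vim (chromosome 2, 13574311 to 13582826), for the intermediate filament protein vimentin, varied least. It ran from 170 to 194 CPM in AKP, from 185 to 203 CPM in NKP and from 179 to 209 CPM in Ptch, with all groups overlapping. With 2 SE on each side, the log2 fold change lay between -0.30 and 0.06 in AKP against Ptch and between -0.20 and 0.16 in NKP against Ptch.

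**Figure D2:**
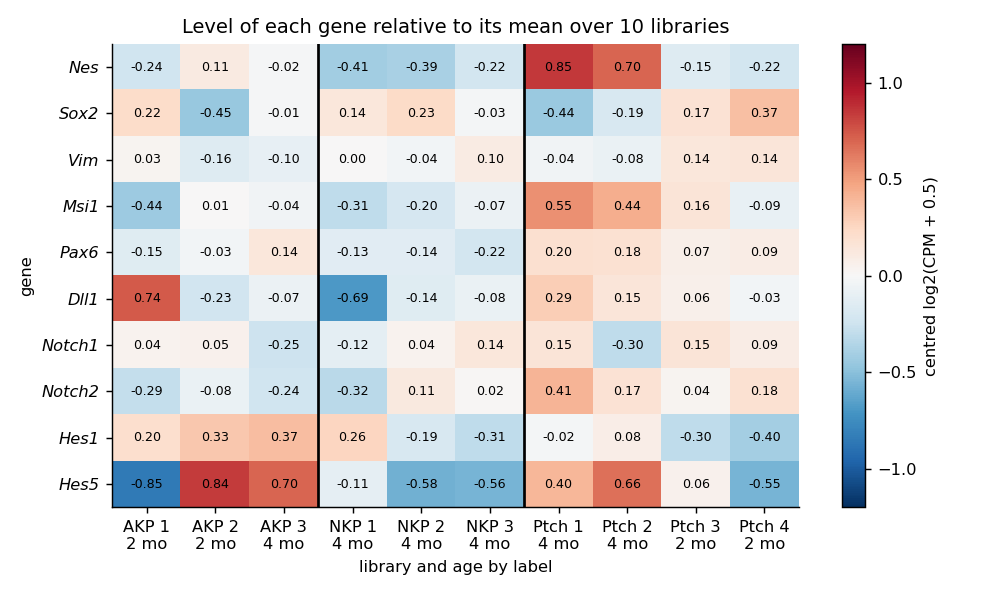
Centred log2(CPM + 0.5) of each gene (rows) in each library (columns, with age by label), red above and blue below the gene's mean over 10 libraries. Nes stands at 0.85 and 0.70 in Ptch 1 and Ptch 2 where Sox2 stands at -0.44 and -0.19, and Hes5 ranges from -0.85 in AKP 1 to 0.84 in AKP 2.

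Dll1 (chromosome 17, 15367354 to 15376932) encodes a ligand that activates Notch receptors on neighbouring cells, and was the least abundant member, with 19 to 61 counts per library. It was at 5.01, 2.31 and 2.65 CPM in AKP 1 to 3, at 1.55, 2.49 and 2.63 CPM in NKP 1 to 3, and at 3.54, 3.15, 2.95 and 2.73 CPM in Ptch 1 to 4. AKP 1 was the highest of all libraries. NKP lay below Ptch without overlap, but NKP 3 (48 counts) and Ptch 4 (43 counts) were only just apart. Dll1 had a log2 fold change of 0.10 in AKP against Ptch (SE 0.302, edgeR adjusted p = 0.873), which turned to -0.31 without AKP 1. In NKP against Ptch it was -0.46 (SE 0.307, edgeR adjusted p = 0.456) and in AKP against NKP 0.56 (SE 0.328, edgeR adjusted p = 0.387), which was 0.14 without AKP 1.

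Among the receptors, Notch1 (chromosome 2, 26457902 to 26503822) overlapped in all comparisons, and its log2 fold change in NKP against Ptch lay between -0.31 and 0.30 with 2 SE on each side. It ran from 11.5 to 14.3 CPM in AKP, 12.7 to 15.2 CPM in NKP and 11.1 to 15.4 CPM in Ptch. Notch2 (chromosome 3, 98013538 to 98150367) was at 11.1, 12.8 and 11.5 CPM in AKP 1 to 3, at 10.8, 14.8 and 13.8 CPM in NKP 1 to 3, and at 18.3, 15.5, 14.0 and 15.5 CPM in Ptch 1 to 4. All AKP libraries lay below all Ptch libraries, while NKP overlapped Ptch. The log2 fold change of Notch2 was -0.42 in AKP against Ptch (SE 0.148, edgeR adjusted p = 0.100) and -0.26 in NKP against Ptch (SE 0.146, edgeR adjusted p = 0.371). After a correction for transcript length and GC content it was -0.12 in AKP against Ptch. Per kilobase, the ratio of Notch1 to Notch2 ran from 1.11 to 1.42 in AKP, 1.06 to 1.30 in NKP and 0.792 to 1.22 in Ptch.

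Hes1 (chromosome 16, 30065357 to 30067796) and Hes5 (chromosome 4, 154960626 to 154962372) encode basic helix-loop-helix repressors that Notch signalling switches on. For Hes5, the 250 bases before the start in the RefSeq promoter table (GRCm38.p6, chr4:154960673-154960922, plus strand) are shown. That start lies downstream of the first base of the gene interval above, so the window falls within the interval. It is shown because Hes5 is a direct target of Notch and the most variable member. Capitals mark the letters GTGGGAA, the sequence bound by Rbpj, or TTCCCAC, the same on the other strand.
Hes5: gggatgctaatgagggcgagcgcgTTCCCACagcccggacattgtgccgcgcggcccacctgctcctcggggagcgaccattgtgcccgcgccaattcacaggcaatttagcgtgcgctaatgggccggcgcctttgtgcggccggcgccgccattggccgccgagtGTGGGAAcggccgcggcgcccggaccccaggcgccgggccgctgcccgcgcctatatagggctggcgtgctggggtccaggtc
The matches lie 226 to 220 and 83 to 77 bases before the start, one on each strand. Of 32851 such windows of all genes, 5.42% held at least 1 match on either strand and 0.161% at least 2. The table gave 10 windows for 8 members, of which the Hes5 window was the only one with a match. Hes1 and Msi1 had no window and were not searched. A match of letters is a description and does not show that Rbpj binds there in these tissues.

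Hes5 was at 1.56, 6.13 and 5.53 CPM in AKP 1 to 3, at 2.94, 1.99 and 2.03 CPM in NKP 1 to 3, and at 4.39, 5.37, 3.36 and 2.03 CPM in Ptch 1 to 4. AKP 1 was the lowest and AKP 2 the highest of all 10 libraries, and the groups overlapped in each comparison. Its counts ran only from 19 to 104, so counting error adds to this spread. Hes5 had a log2 fold change of 0.22 in AKP against Ptch (SE 0.419, edgeR adjusted p = 0.786) and -0.72 in NKP against Ptch (SE 0.437, edgeR adjusted p = 0.414). In AKP against NKP it was 0.94 (SE 0.464, edgeR adjusted p = 0.320). Without AKP 1 the last value was 1.34 (SE 0.357, edgeR adjusted p = 0.0371), past the threshold in a fit that called 8.49% of all genes. AKP 2 and AKP 3 differed from AKP 1 in mitosis genes as well, as given above, and the part of this difference in the Hes5 values was not tested.

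Hes1 was at 6.90, 7.58 and 7.81 CPM in AKP 1 to 3, at 7.20, 5.14 and 4.71 CPM in NKP 1 to 3, and at 5.85, 6.30, 4.73 and 4.37 CPM in Ptch 1 to 4. The AKP libraries, AKP 1 included, lay above all Ptch libraries, and NKP 1 lay among them. Hes1 had a log2 fold change of 0.48 in AKP against Ptch (SE 0.205, edgeR adjusted p = 0.162), 0.09 in NKP against Ptch (SE 0.207, edgeR adjusted p = 0.858) and 0.40 in AKP against NKP (SE 0.221, edgeR adjusted p = 0.369). In AKP against Ptch it remained above 0 in 24 of 24 alternatives, from 0.24 to 0.71, and passed the threshold in none of them. Hes1 and Hes5 were both above their means in AKP 2, AKP 3 and Ptch 2 and both below in NKP 2, NKP 3 and Ptch 4, but parted most in AKP 1. Per kilobase, the ratio of Hes5 to Hes1 was 0.261, 0.933 and 0.816 in AKP 1 to 3. It was 0.472, 0.446 and 0.496 in the NKP libraries and 0.865, 0.983, 0.818 and 0.535 in Ptch 1 to 4. AKP 1 had the lowest ratio of all. All NKP libraries had a lower ratio than all Ptch libraries, but NKP 3 and Ptch 4 were only just apart. Hes5 had only 37 counts in NKP 3 and 32 in Ptch 4. No share over all genes was computed for such ratios.

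**Figure D3:**
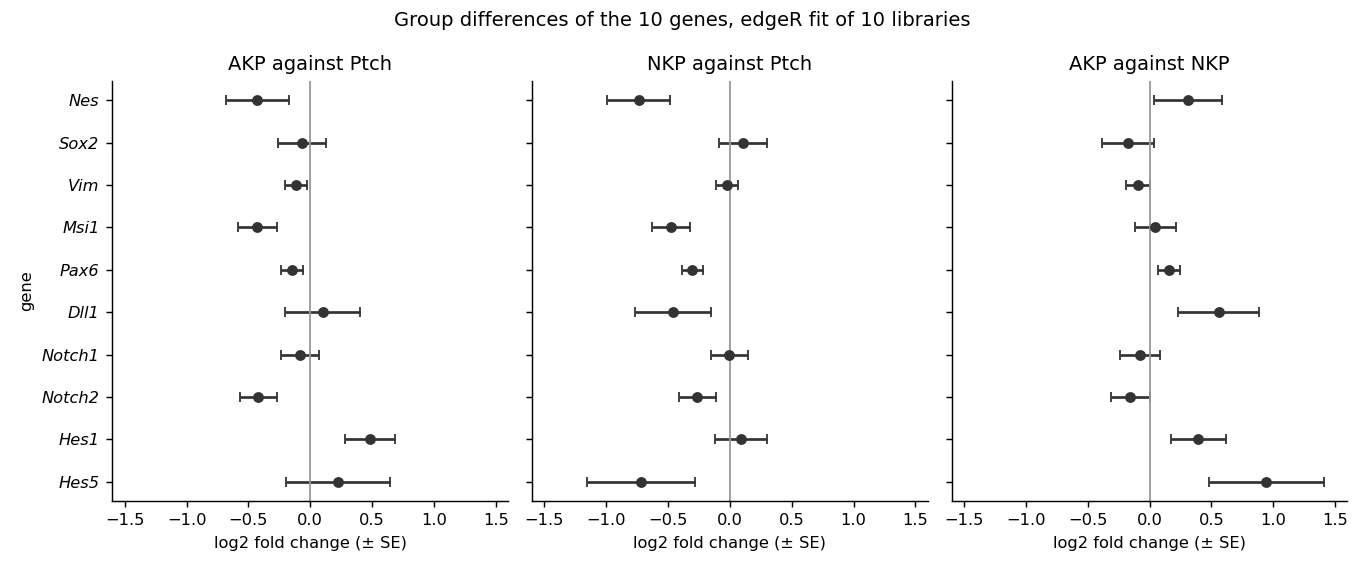
Log2 fold change of each gene (horizontal axes) with its SE as bars, in AKP against Ptch, NKP against Ptch and AKP against NKP, from 1 edgeR fit of 10 libraries. No gene passed the adjusted threshold, with the values farthest from 0 at 0.94 for Hes5 in AKP against NKP and -0.74 for Nes in NKP against Ptch.

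As a group, 7 of 10 members had a log2 fold change below 0 in AKP against Ptch, with a median of -0.10 beside -0.02 over all genes. Between NKP and Ptch 8 of 10 were below 0, with a median of -0.28 beside 0.01 over all genes. Both comparisons share the Ptch libraries. In AKP against NKP 4 of 10 were below 0 and the median was 0.10, beside -0.01. Groups did not overlap in CPM for 2 of 10 members in AKP against Ptch (Notch2 and Hes1), where 24.8% of all genes did so. In NKP against Ptch these were 3 of 10 (Nes, Pax6 and Dll1), beside 15.9% of all genes. Of these, Nes and Dll1 were only just apart. In AKP against NKP there were 0 of 10, beside 16.2%.

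Age, mitosis level and sex by RNA divided the Ptch group in the same way. Ptch 1 and Ptch 2 are the 4-month pair, the pair highest in mitosis genes and the only libraries without appreciable Y-linked RNA, at 0.385 and 0.465 CPM. Y-linked genes summed to 55.0 to 81.2 CPM in AKP, 68.4 to 87.1 CPM in NKP and 99.2 and 96.9 CPM in Ptch 3 and Ptch 4. Xist was at 251 and 298 CPM in Ptch 1 and Ptch 2 and at 74.8 CPM in NKP 2, which also held Y-linked RNA at 68.4 CPM. It was at 15.0, 11.9, 10.2 and 5.38 CPM in AKP 1, NKP 1, Ptch 3 and AKP 3, beside Y-linked RNA. In AKP 2, NKP 3 and Ptch 4 it was at 0.43 to 0.44 CPM. The cause of Xist beside Y-linked RNA was not tested. With the age label as a covariate, 3 of 10 members fell in NKP against Ptch, beside 5.97% of all genes called. These were Nes (log2 fold change -0.99, SE 0.204, edgeR adjusted p = 0.0249), Msi1 (-0.63, SE 0.140, edgeR adjusted p = 0.0287) and Pax6 (-0.38, SE 0.0873, edgeR adjusted p = 0.0307). Among the 4-month libraries alone, 4 of 10 members fell, beside 15.6% of all genes called. In that fit of the 3 NKP libraries, Ptch 1, Ptch 2 and AKP 3, Nes had a log2 fold change of -1.15 (SE 0.164, edgeR adjusted p = 0.000329) and Hes5 -1.09 (SE 0.292, edgeR adjusted p = 0.0209). Msi1 (-0.68) and Pax6 (-0.35) also passed there. In that fit all AKP and NKP libraries held Y-linked RNA and both Ptch libraries lacked it. Ptch 1 and Ptch 2 were also much closer to each other than to Ptch 3 and Ptch 4, as given under processing. The SEs of that fit rest partly on this closeness, which may be technical, and may be too small. Without Ptch 1 and Ptch 2 no member passed in any comparison. In AKP against Ptch no other gene was called without this pair either. The shares of all genes called in the other comparisons without this pair are not given here. With the age label as a covariate no member passed in AKP against Ptch or AKP against NKP, where 4.68% and 0% of all genes were called in that order. Age, sex by RNA and mitosis level cannot be told apart in this pair.

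**Figure D4:**
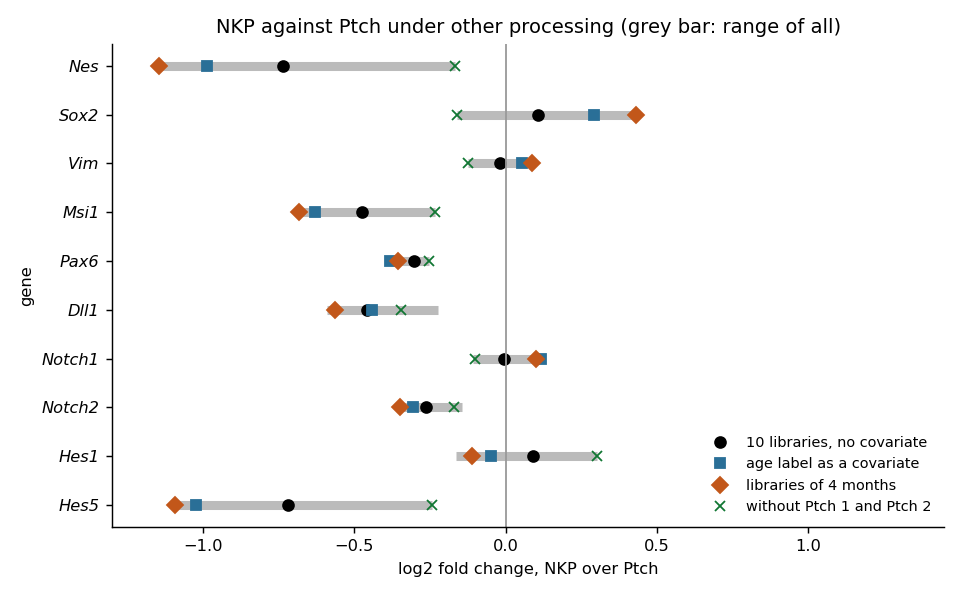
Log2 fold change of each gene in NKP over Ptch (horizontal axis) from all 10 libraries (circles), with the age label as a covariate (squares), in 4-month libraries (diamonds) and without Ptch 1 and Ptch 2 (crosses), over a grey bar for the range of all alternatives. Nes moves from -1.15 in 4-month libraries to -0.17 without Ptch 1 and Ptch 2, whereas Pax6 stays between -0.38 and -0.26.

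Set beside the mitosis genes of the same library, Nes, Msi1 and Hes5 were lower in the libraries with least mitosis RNA than in Ptch 1 and Ptch 2. In AKP 1, NKP 1 and NKP 2, with mitosis sums of 6.0, 6.22 and 5.91 CPM, Nes was at 8.995 to 10.2 CPM, Msi1 at 25.1 to 29.7 CPM and Hes5 at 1.56 to 2.94 CPM. In Ptch 1 and Ptch 2, with mitosis sums of 332 and 334 CPM, Nes was at 22.3 and 20.0 CPM, Msi1 at 50.0 and 46.3 CPM and Hes5 at 4.39 and 5.37 CPM. Sox2 showed the opposite, at 33.8 to 35.9 CPM in those 3 libraries and at 22.4 and 26.8 CPM in the Ptch pair. NKP 3, with a mitosis sum of 45.4 CPM, had Nes at 10.35 CPM and Hes5 at 2.03 CPM, close to NKP 2. AKP 2 and AKP 3 had mitosis sums of 209 and 168 CPM. In these, Nes was at 13.1 and 12.01 CPM and Msi1 at 34.3 and 33.2 CPM, well below the Ptch pair. Hes5 was at 6.13 and 5.53 CPM there, above the Ptch pair, and Sox2 at 22.3 and 30.4 CPM. The libraries between did not follow a steady order, with Nes at 10.9 and 10.40 CPM in Ptch 3 and Ptch 4, about that of AKP 1, and Hes5 lower in Ptch 4 (2.03 CPM) than in NKP 1 (2.94 CPM). The other members varied. Pax6 and Notch2 were also lower in AKP 1, NKP 1 and NKP 2 than in the Ptch pair, and Vim was slightly higher. Hes1 (5.14 to 7.20 CPM against 5.85 and 6.30 CPM), Dll1 (1.55 to 5.01 CPM against 3.54 and 3.15 CPM) and Notch1 overlapped. No share of all genes was computed for this contrast. These are descriptions over 10 libraries that differ in label, age and tissue makeup.

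**Figure D5:**
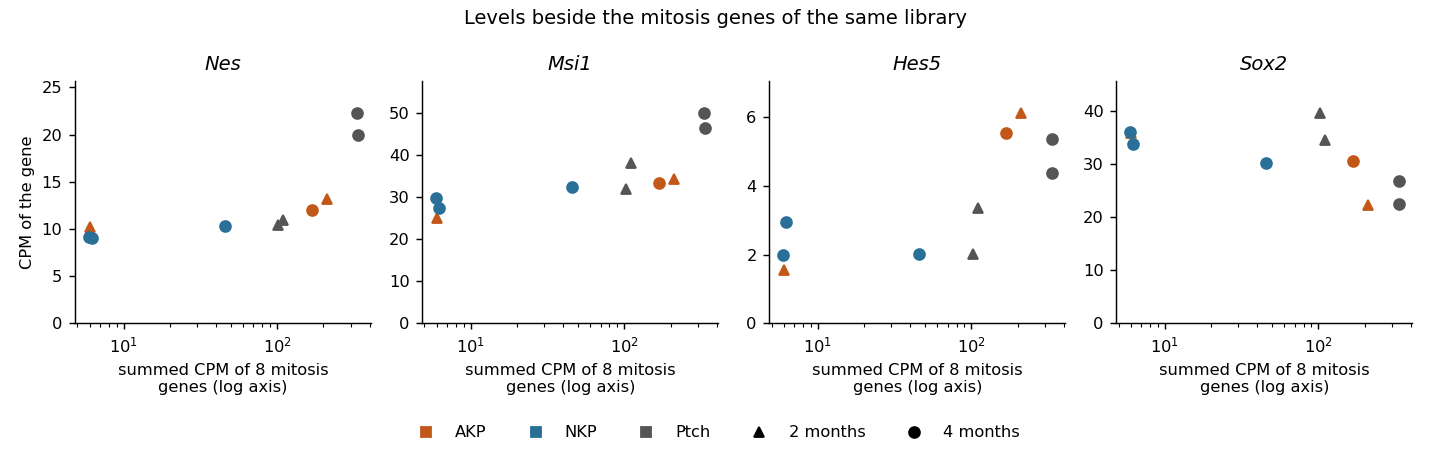
CPM of Nes, Msi1, Hes5 and Sox2 (vertical axes, from 0) against the summed CPM of 8 mitosis genes in the same library (horizontal log axes), coloured by group, with triangles for 2 months and circles for 4 months. Nes and Msi1 are highest and Sox2 is among the lowest in Ptch 1 and Ptch 2, at mitosis sums of 332 and 334 CPM.

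Markers of several cell types were summed by library, and some lists separated from Ptch without overlap while others overlapped. The 10 endothelial markers summed to 223 to 265 CPM in AKP, 227 to 274 CPM in NKP and 152.5 to 207 CPM in Ptch, thus higher in both tumour-labelled groups, where Nes had the lower means. The 8 mural and meningeal markers summed to 267 to 326 CPM in AKP, 278 to 377 CPM in NKP and 202 to 256 CPM in Ptch. The 9 oligodendrocyte lineage markers were also higher without overlap, at 6843 to 8590 CPM in AKP, 6005 to 9556 CPM in NKP and 4619 to 5832 CPM in Ptch. The 6 granule neuron precursor markers, of the lineage that expresses Pax6, summed to 808 to 957 CPM in AKP and 922 to 929 CPM in NKP. Both lay below the 998 to 1081 CPM of Ptch without overlap. Zic1 and Zic2 weighed most in these sums, with means of 652 and 233 CPM in Ptch. Taken singly, 0 of these 6 markers separated AKP from Ptch without overlap, beside 24.8% of all genes. In NKP against Ptch 4 of 6 did, all lower, beside 15.9%. The 8 microglia markers summed to 190 to 316 CPM in AKP, 185 to 188 CPM in NKP and 207 to 257 CPM in Ptch, with NKP below Ptch. The 13 markers of Bergmann glia and astrocytes overlapped, with sums of 3342 to 3927 CPM in AKP, 3570 to 3958 CPM in NKP and 3466 to 3625 CPM in Ptch. The 8 mature granule neuron markers, a lineage that expresses Pax6, summed to 2707 to 4862 CPM in AKP, 4218 to 4849 CPM in NKP and 3434 to 4312 CPM in Ptch. Of these 7 lists, only the precursor list had a marker at 0, Atoh1 as given above. The part of these cells in the members' values was not tested, and in bulk tissue fewer cells of a type and less RNA per cell cannot be told apart.

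A chosen list of 47 other Notch pathway genes, which counts Id1 to Id4 among the targets, held mostly genes that were not called. In AKP against Ptch, 1 of 47 rose and 3 fell (3.38% of all genes rose and 2.30% fell), with a median log2 fold change of -0.10 beside -0.02 over all genes. In NKP against Ptch (median -0.06) and AKP against NKP (median -0.05) none of the 47 passed by edgeR. At an unadjusted p below 0.05 there were 9 of 47 in AKP against Ptch, 10 in NKP against Ptch and 6 in AKP against NKP. The shares of all genes were 25.1%, 17.0% and 16.9% in that order. DESeq2 called 6, 0 and 1 of the 47 in that order, beside 12.4%, 2.60% and 1.47% of all genes. It gave no adjusted p for 6 in AKP against Ptch and for 17 in AKP against NKP. Spen, for a nuclear corepressor that works with Rbpj, fell in AKP to 25.1 ± 0.765 CPM (SD, n = 3), against 39.5 ± 3.79 CPM in Ptch (SD, n = 4), with a log2 fold change of -0.66 (SE 0.144, edgeR adjusted p = 0.0279). Numb, for an inhibitor of Notch that Musashi 1 represses, fell to 29.5 ± 3.17 CPM in AKP, against 38.2 ± 1.65 CPM in Ptch (-0.38, SE 0.0969, edgeR adjusted p = 0.0426). Ncstn, for the gamma-secretase subunit nicastrin, fell to 46.9 ± 3.52 CPM in AKP, against 61.3 ± 5.55 CPM in Ptch (-0.38, SE 0.0965, edgeR adjusted p = 0.0397). Id3, for an inhibitor of helix-loop-helix factors, rose to 38.3 ± 5.93 CPM in AKP, against 27.3 ± 0.885 CPM in Ptch (0.49, SE 0.108, edgeR adjusted p = 0.0282).

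These 4 calls were often lost when a library was left out, while the log2 fold changes kept their sign. Spen lay between -0.69 and -0.59, Id3 between 0.39 and 0.60, Numb between -0.47 and -0.33 and Ncstn between -0.42 and -0.32. With 1 of 10 libraries left out in turn, Spen passed in 5 of 10 fits, Id3 in 4, Numb in 3 and Ncstn in 2. In fits without AKP 2, AKP 3, Ptch 1 or Ptch 2, the calls over all genes also fell to 0 or 1. Without AKP 3 none of the 4 passed, with log2 fold changes of -0.67 for Spen, 0.45 for Id3, -0.33 for Numb and -0.41 for Ncstn. The same held without AKP 2 (-0.63, 0.39, -0.33 and -0.42), without Ptch 1 (-0.59, 0.48, -0.34 and -0.32), without Ptch 2 (-0.64, 0.49, -0.37 and -0.35) and without Ptch 4 (-0.69, 0.51, -0.36 and -0.40). Without Ptch 3 Id3, Numb and Ncstn did not pass (0.50, -0.40 and -0.42). Without NKP 2 Numb and Ncstn did not (-0.38 and -0.38), nor did Ncstn without AKP 1 (-0.32). After the correction for transcript length and GC content none of the 4 passed, with Spen at -0.31, Id3 at 0.26, Numb at -0.32 and Ncstn at -0.37. The direction of all 4 was the same in each of the 24 alternatives.

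Of the other 9 receptors and ligands of the Notch family, none passed by edgeR in any comparison. At an unadjusted p below 0.05 there were 0 in AKP against Ptch, 1 in NKP against Ptch and 0 in AKP against NKP. The shares of all genes were 25.1%, 17.0% and 16.9% in that order. DESeq2 called none of those it gave an adjusted p, which was lacking for 4 of 9 in AKP against Ptch and 8 of 9 in AKP against NKP. By edgeR, the 2 with the smallest p in AKP against Ptch were Notch3 and Dll4. Notch3, a receptor of mural cells, was at 6.21 ± 0.766 CPM in AKP (SD, n = 3) and 8.04 ± 1.08 CPM in Ptch (SD, n = 4), with a log2 fold change of -0.37 (SE 0.199, edgeR adjusted p = 0.268). Dll4, an endothelial ligand, was at 2.35 ± 0.283 CPM in AKP and 3.09 ± 0.250 CPM in Ptch (-0.39, SE 0.225, edgeR adjusted p = 0.306). Of 14 further stem cell and radial glia genes, 12 were tested and none passed by edgeR. At an unadjusted p below 0.05 there were 2 of 12 in AKP against Ptch, beside 25.1% of all genes. In NKP against Ptch there were 0, beside 17.0%, and in AKP against NKP 2, beside 16.9%. DESeq2 called none either, but gave no adjusted p for 2 of 12 in AKP against Ptch and 6 of 12 in AKP against NKP. The 2 with the smallest p in AKP against Ptch were Sox21, a relative of Sox2 (-0.53, SE 0.201, edgeR adjusted p = 0.120), and Tnc, for the matrix protein tenascin C (-0.54, SE 0.219, edgeR adjusted p = 0.146). Tnc passed without AKP 1 (-0.81, edgeR adjusted p = 0.0336) and without AKP 1, NKP 1 and NKP 2 (-0.81, edgeR adjusted p = 0.0394), and was at -0.26 without Ptch 1 and Ptch 2.

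The genes most like each member in pattern were sought among 11797 genes with a mean of at least 5 CPM, by the root mean square difference of centred log2(CPM + 0.5) over the 10 libraries. For Nes these were Casp2 and Tle1, with differences of 0.08 and 0.10 on the log2 scale, beside a spread of Nes itself of 0.41. Casp2, a caspase gene, was at 26.9 and 25.3 CPM in Ptch 1 and Ptch 2 and at 12.3 to 18.0 CPM in the other libraries. For Msi1 they were Cmtm4 and Prkd3 (each 0.07, spread 0.29), for Sox2 Lemd3 (0.08) and Wwox (0.09, spread 0.27), and for Hes5 Cyp39a1 (0.15) and Ier5l (0.16, spread 0.59). For Hes1 they were Nt5c (0.07) and Rpp25l (0.08, spread 0.27), and for Notch2 Kdm3a (0.07) and Ncapd3 (0.09, spread 0.22). Dll1 had no close match, since its nearest genes, Zfp335 and Npy, each differed by 0.23 beside a spread of 0.35. For Pax6 the nearest were Rcl1 and Adpgk, for Vim Mapk8ip2 and Fam219a, and for Notch1 Rcor3 and Jakmip1, with differences of 0.04 to 0.10. Among the members themselves, the nearest gene to Nes was Msi1 (0.20), and the nearest to Msi1 was Notch2 (0.19). The nearest member to Hes5 was Nes (0.45), not Hes1.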

How the data were processed

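Poly-A RNA of 10 libraries (3 AKP, 3 NKP and 4 Ptch) was sequenced with a TruSeq kit, per the labels' protocols. The tools Trim Galore, STAR and RSEM and the build GRCm38 are named in the submitters' processing notes, and their versions were not given in the sources used here, nor was the annotation. Values as deposited are whole numbers with unequal library totals and were read as RSEM expected counts that the authors had rounded. Of the 39769 symbols, 99.96% matched RefSeq GRCm38.p6.

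Genes were kept by filterByExpr with the 3 groups (15617 genes), scaled by TMM and tested in edgeR 4.0.16 under R 4.3.3. The quasi-likelihood test with robust dispersions was used, and all 10 libraries entered 1 fit with no covariate. Adjusted p-values are Benjamini-Hochberg over all genes, at 0.05. An SE is the size of the log2 fold change over the square root of F. CPM are on the TMM scale, and lengths are of the longest coding GENCODE vM21 transcript. The fit was tested on simulated counts. These were drawn independently with the same dispersion for every gene, so they do not cover closeness between libraries such as that given below. The labels do not state that each library is a different animal, so a p-value reflects only how these libraries vary, which may be technical. The closest libraries of 1 group, Ptch 3 and Ptch 4, differed by more than sampling noise (chi-square per degree of freedom 3.29). Ptch 1 and Ptch 2 were as close (3.47), against 25.9 to 28.8 across these pairs, so the 4 Ptch libraries form 2 tight pairs and may hold less independent spread than their number.

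The members and gene lists were chosen with earlier results of these data known. Named were all members, Kmt2d and Ptch1, list genes past the threshold or otherwise the 2 with the smallest p in AKP against Ptch, and for each member the 2 genes most like it. Rbpj and other list genes are counted without values by this rule. Ptch1 ran from 55.5 to 90.7 CPM in AKP, 85.6 to 110.6 CPM in NKP and 74.0 to 103 CPM in Ptch. Alternatives were RLE and upper quartile scaling, DESeq2 1.42.0, 2 other filters, fits of 2 groups, age or sex label as a covariate, 4-month libraries, the replicate number as a block, lowess trends (span 0.3) with transcript length and GC content as offsets, and each library left out. Added after seeing the data were fits without the 4 libraries against their sex label, without Ptch 1 and Ptch 2, and without AKP 1, NKP 1 and NKP 2, the tumour-labelled libraries lowest in mitosis genes.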

Additional observations from a re-analysis of the deposited data

How the results depend on the processing

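The number of members past the threshold in NKP against Ptch was 0, and became 3 with the age label as a covariate and 4 in 4-month libraries. In AKP against Ptch it was 0 in all 24 alternatives. In AKP against NKP it was 0, and with 1 library left out it ran from 0 to 1 (Hes5, without AKP 1). With 1 library left out it stayed at 0 in the other 2 comparisons. Over all genes, AKP against Ptch gave 887 calls, 1940 by DESeq2, 11 with the length and GC correction, 0 with the replicate number as a block, 0 without AKP 3, 0 without both Ptch 1 and Ptch 2, 0 without the 4 libraries that contradict their sex label, and 1 without AKP 2, Ptch 1 or Ptch 2. Of 30 member values, 17 kept their sign in all alternatives. Dll1 and Hes5 had no value under the filter of a mean of at least 5 CPM. Age-matching for AKP against Ptch was the fit with the age covariate. Where leaving libraries out left a group with 1, it was assumed to vary like the others.

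The rest took the other sign in some fits, none of them past the threshold; the cause was not tested. In NKP against Ptch, Sox2 was -0.16 without Ptch 1 and Ptch 2, -0.033 without AKP 1, NKP 1 and NKP 2, and -0.021 to 0.25 with 1 library left out. Vim was 0.053 with the age covariate, 0.087 in 4-month libraries, 0.016 with the replicate block, 0.039 with the block and the length and GC correction, 0.063 without AKP 1, NKP 1 and NKP 2, and -0.062 to 0.016 with 1 library left out. Notch1 was 0.014 by upper quartile, 0.0019 in the 2 groups alone, 0.12 with the age covariate, 0.10 in 4-month libraries, 0.020 with the block, 0.098 with the length and GC correction, 0.11 with both, 0.065 without the 4 that contradict their sex label, 0.12 without AKP 1, NKP 1 and NKP 2, and -0.11 to 0.062 with 1 library left out. Hes1 was -0.0475 with the age covariate, -0.11 in 4-month libraries, -0.0018 with the block and the length and GC correction, -0.16 without AKP 1, NKP 1 and NKP 2, and -0.11 to 0.21 with 1 library left out.

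In AKP against Ptch, Nes was 0.15 without Ptch 1 and Ptch 2. Sox2 was 0.073 with the replicate block, 0.0052 with the block and the length and GC correction, and -0.23 to 0.10 with 1 library left out. Dll1 was -0.31 without AKP 1, NKP 1 and NKP 2, and -0.31 to 0.31 with 1 left out. Notch1 was 0.22 with the length and GC correction, 0.23 with the block as well, 0.16 without the 4 that contradict their sex label, and -0.17 to 0.017 with 1 left out. Hes5 was -0.027 with the block, -0.22 with the block and the correction, and -0.086 to 0.62 with 1 left out. In AKP against NKP, Msi1 was -0.035 to 0.17 with 1 left out and Dll1 -0.091 without AKP 1, NKP 1 and NKP 2. Notch1 was 0.12 with the length and GC correction, 0.12 with the block as well, 0.093 without the 4 that contradict their sex label, and -0.14 to 0.021 with 1 left out. Notch2 was 0.056 with the correction and 0.056 with the block as well. The replicate numbers did not pair the libraries, since correlations of same-numbered deviations ran from -0.335 to 0.341. Low counts of Dll1, Hes5 and Hes1 limit their precision.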
